A study of Mus musculus with 2 samples.

Results

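The 31 genes described here make cholesterol and fatty acids or control that synthesis, and they were measured in the liver of mouse embryos at day 14.5. They were taken as a list of gene symbols and matched to the deposited gene tables by Ensembl identifier, and all 31 were found among 43346 mouse gene rows. They were set out in 4 roles: 6 genes of the mevalonate steps, 10 of the late sterol steps, 5 of the control of sterol regulatory element binding proteins (SREBPs), and 10 of fatty acid synthesis, desaturation and elongation. Total RNA-seq was done on 2 biological replicates of the B6NCrl strain, 1 library each from 10 ng of RNA, with ERCC spike-ins. The labels name no treatment and no genetic change. The labels call each sample a single liver from 1 pup and also pooled male and female tissue, and the 2 livers were collected on different days. The libraries form 1 group, so there was no second group to test against, and values are given per library, as mean ± SD (n = 2), without p-values. Sequencing gave 39998450 estimated reads for replicate 1, 37059776 of them on mouse genes, and 28848861 for replicate 2, with 26908926 on mouse genes.

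Cholesterol synthesis starts from acetyl-CoA. The mevalonate steps make isoprenoid units, and the late steps join them into squalene, close the ring to lanosterol and trim it to cholesterol. When sterols are scarce, SCAP carries SREBP from the endoplasmic reticulum to the Golgi, where proteases release the part that turns on these genes, and INSIG proteins hold SCAP back when sterols are plentiful. SREBP-2, from Srebf2, is best known for sterol genes and SREBP-1c, a product of Srebf1, for fatty acid genes in the adult liver. At this age the liver is also where most blood cells of the embryo form.

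Promoter windows from RefSeq on GRCm38.p6, 250 bases before and 50 bases from each annotated start, were found for 25 of the 31 genes, 33 windows in all. Each was searched on both strands for an SREBP motif, TCACNCCAC, and for CCAAT, the letters bound by nuclear factor Y, a partner of SREBPs. The 7 windows shown are those with the most CCAAT matches in the mevalonate and fatty acid roles, the window with both motifs, and the starts that the transcript values turn on. They are written 5′ to 3′ on the gene's strand, and capitals mark motif letters on either strand.

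Hmgcs1, chr13:119690101-119690400, plus strand: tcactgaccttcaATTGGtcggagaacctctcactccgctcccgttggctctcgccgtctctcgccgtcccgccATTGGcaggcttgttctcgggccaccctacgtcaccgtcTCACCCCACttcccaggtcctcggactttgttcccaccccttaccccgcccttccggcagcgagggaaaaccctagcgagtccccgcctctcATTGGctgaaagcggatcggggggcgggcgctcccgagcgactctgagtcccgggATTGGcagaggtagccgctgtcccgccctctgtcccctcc
Mvk, chr5:114444019-114444318, plus strand: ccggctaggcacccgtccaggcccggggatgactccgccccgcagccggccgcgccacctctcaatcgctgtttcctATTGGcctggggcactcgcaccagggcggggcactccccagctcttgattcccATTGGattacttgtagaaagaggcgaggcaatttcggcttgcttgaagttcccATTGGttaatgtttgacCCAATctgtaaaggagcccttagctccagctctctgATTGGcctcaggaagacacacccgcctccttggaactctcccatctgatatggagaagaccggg
Fasn, chr11:120824498-120824797, minus strand: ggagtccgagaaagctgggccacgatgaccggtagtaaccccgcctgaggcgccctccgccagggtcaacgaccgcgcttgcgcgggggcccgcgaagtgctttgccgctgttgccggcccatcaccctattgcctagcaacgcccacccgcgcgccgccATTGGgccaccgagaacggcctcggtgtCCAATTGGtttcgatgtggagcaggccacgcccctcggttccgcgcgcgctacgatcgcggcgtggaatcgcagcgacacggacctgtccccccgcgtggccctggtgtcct
Acaca, chr11:84195188-84195487, plus strand: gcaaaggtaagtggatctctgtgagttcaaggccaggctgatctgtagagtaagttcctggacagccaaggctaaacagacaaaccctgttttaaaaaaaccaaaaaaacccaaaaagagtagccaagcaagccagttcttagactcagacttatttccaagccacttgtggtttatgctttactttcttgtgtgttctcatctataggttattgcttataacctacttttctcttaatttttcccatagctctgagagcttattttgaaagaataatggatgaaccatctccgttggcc
Srebf1 upstream start, chr11:60222532-60222831, minus strand: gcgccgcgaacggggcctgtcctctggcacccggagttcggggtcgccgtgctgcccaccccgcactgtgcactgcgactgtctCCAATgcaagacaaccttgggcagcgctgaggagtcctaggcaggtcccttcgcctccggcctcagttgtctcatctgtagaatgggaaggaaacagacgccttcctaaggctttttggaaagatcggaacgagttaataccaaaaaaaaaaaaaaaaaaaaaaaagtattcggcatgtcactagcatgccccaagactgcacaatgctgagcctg
Srebf1 middle start, chr11:60220578-60220877, minus strand: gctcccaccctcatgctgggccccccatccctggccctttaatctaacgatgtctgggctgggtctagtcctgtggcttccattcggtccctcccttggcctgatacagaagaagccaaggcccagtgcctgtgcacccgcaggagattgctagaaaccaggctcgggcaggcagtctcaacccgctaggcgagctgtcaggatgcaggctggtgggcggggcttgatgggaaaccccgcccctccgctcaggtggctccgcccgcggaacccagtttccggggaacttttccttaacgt
Srebf1 downstream start, chr11:60210422-60210721, minus strand: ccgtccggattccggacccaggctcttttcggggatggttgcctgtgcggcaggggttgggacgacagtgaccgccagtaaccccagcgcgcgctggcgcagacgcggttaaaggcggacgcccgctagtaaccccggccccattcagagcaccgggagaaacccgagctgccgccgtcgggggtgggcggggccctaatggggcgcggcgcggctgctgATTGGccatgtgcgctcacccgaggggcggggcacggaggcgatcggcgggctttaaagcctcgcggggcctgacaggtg

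CCAAT was present in 22 of the 33 windows (66.7%), beside 4196 of 10987 windows (38.2%) of genes detected in both livers at a level of 1 TPM and 12289 of 32851 windows of all genes (37.4%). Counted by gene, 21 of 25 members (84%) had it in at least 1 window, beside 43.5% of 8600 genes so detected and 41.1% of all 27025 genes. It was found in 5 of 5 mevalonate genes and 8 of 8 late sterol genes with a window, in 4 of 5 SREBP control genes and in 4 of 7 fatty acid genes. The fatty acid genes without a match include Acaca, whose window lies inside the gene and may not be a promoter. A window with 2 or more matches was found for 12 of 25 members (48%), beside 17.4% of genes so detected and 13.3% of all genes. Mvk had 5 matches, Hmgcs1 and Nsdhl had 4 each, and Msmo1, Hsd17b7, Insig2 and Fasn had 3 each. The Insig2 matches and the only Pmvk match lie in the windows of starts 1:121332589 and 3:89454541. None of these genes' transcripts with any TPM begins there, and their other windows held no match. All the member counts in this paragraph include these windows. A pair of the Fasn matches share letters, 1 on each strand. Of 45 CCAAT matches in member windows, 28 (62.2%) began within the 100 bases before the start, beside 49% of 6672 matches in genes so detected. The SREBP motif was found in 1 of 33 windows (3.03%), that of Hmgcs1, beginning at base -137 from the start. It was found in 1.17% of windows of genes so detected and in 1.24% of all windows. Only exact matches were counted, so sites that differ by 1 letter were missed. No match of one motif overlapped a match of the other. These are letter matches in short windows, with no measurement of binding.

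The levels of the members are given in TPM, a gene's reads divided by its length and scaled to the same total in each library. Of the 31 genes, 30 reached 1 TPM in both livers, beside 26.7% of 42462 mouse genes with a symbol and 49.2% of 21474 protein-coding genes. The exception was Acacb. Their median level was 28.97 and 30.38 TPM in replicates 1 and 2, and 25 of the 31 lay above 9.66 TPM, the median of genes detected in both livers. Together they took 0.138% ± 0.0063 of mouse TPM. In bulk tissue, fewer cells of a type and less RNA per cell cannot be told apart, so these levels are averages over liver and blood cells.

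The tissue was checked on marker lists. All 6 hepatoblast and hepatocyte markers and all 5 erythroid markers were above 1 TPM in both livers. Summed hepatoblast markers were 16562 and 17336 TPM in replicates 1 and 2, and summed erythroid markers were 2448 and 2548 TPM. Afp, the fetal albumin relative, led the first list at 6417 and 6856 TPM, and Hnf4a, a hepatocyte transcription factor, was lowest at 9.42 and 8.65 TPM. Alas2, the haem synthesis enzyme of red cells, led the second at 832.7 and 812.3 TPM, and Epb42, a red cell membrane protein, was lowest at 102.2 and 104.1 TPM. The globin share of mouse TPM was 39.9% for replicate 1 and 38.1% for replicate 2. Markers of macrophages (C1qb 81.70 and 79.54, Csf1r 14.92 and 15.82 TPM), megakaryocytes (Pf4 337.6 and 417.9, Itga2b 16.85 and 23.38 TPM) and endothelium (Stab2 14.48 and 14.44, Kdr 4.26 and 4.65 TPM) were present too. Of 4 stellate and mesenchymal markers, 3 were detected, led by Col3a1 at 53.76 and 57.00 TPM, and Ngfr lay under 1 TPM at 0.96 and 0.94 TPM. None of the 3 neuron markers reached 1 TPM, and the highest, Tubb3, had 0.34 and 0.23 TPM. The list that differed most between the livers was that of neutrophils, whose summed level was 1725 TPM for replicate 1 but 1248 TPM for replicate 2, with S100a8 at 1292 and 893.9 TPM and Elane at 130.9 and 101.0 TPM. The part of these cells in the members' levels was not tested.

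Mevalonate genes were led by Fdps and Hmgcs1. Fdps, which makes farnesyl diphosphate at the branch point between sterols and other isoprenoids, had 189.32 and 200.05 TPM in replicates 1 and 2 (194.7 ± 7.59), on 9042 and 6639 estimated reads. It was the most abundant of the 31 members and stood above 95.9% of genes detected in both livers (ENSMUSG00000059743.8, chr3:89093588-89101959, mm10, minus strand). Hmgcs1, the cytosolic HMG-CoA synthase whose promoter window held both motifs, had 91.67 and 114.84 TPM (103.3 ± 16.4). Idi1, which isomerises isopentenyl diphosphate, followed at 63.96 and 68.75 TPM. None of the 3 overlapped another of the 3 in either liver. The enzymes that phosphorylate and decarboxylate mevalonate were lower. Mevalonate kinase, Mvk, whose window held 5 CCAAT matches, had 25.80 and 24.79 TPM. Phosphomevalonate kinase, Pmvk, had 25.95 and 29.96 TPM, and the decarboxylase Mvd had 13.96 and 12.55 TPM. The median of the 6 genes was 47.16 TPM, and they held 0.0479% ± 0.0029 of mouse TPM.

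Late sterol genes had a median of 48.40 TPM, close to that of the mevalonate genes, and 10 of 10 were detected in both livers. Msmo1, which removes methyl groups at carbon 4 of the sterol ring, was highest, with 107.83 and 98.56 TPM in replicates 1 and 2 (103.2 ± 6.55), or a mean of 64.11 TPM over coding transcripts alone. The next 2 genes could not be ordered over all transcripts: Ebp, the sterol isomerase, had 58.37 and 54.01 TPM, and Sqle, the squalene epoxidase, had 55.91 and 56.41 TPM. Their ranges overlap. Over coding transcripts alone they do not, with Ebp at 42.19 and 39.17 TPM and Sqle at 55.54 and 55.99 TPM. Ebp then also lies below Fdft1, Sc5d and Dhcr7. Another 3 genes of unlike steps lay within 1 TPM of each other by mean: Fdft1, squalene synthase, at 48.66 ± 3.63 TPM, Sc5d, the sterol C5 desaturase, at 48.59 ± 2.76 TPM, and Dhcr7, the last reductase of 1 branch, at 48.20 ± 2.60 TPM. Lss, which closes the lanosterol ring, had 36.61 and 35.63 TPM, or 18.51 and 21.56 TPM over coding transcripts alone. Tm7sf2, a sterol C14 reductase, had 28.97 and 30.27 TPM, and Nsdhl, the C4 decarboxylase, had 19.17 and 21.68 TPM. Hsd17b7, the 3-ketosterol reductase, was lowest at 8.68 and 7.97 TPM. The 10 genes took 0.0506% ± 0.00012 of mouse TPM.

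SREBP control genes were lower, with a median of 19.46 TPM over 5 genes. Insig1, a sterol-regulated anchor of SCAP, had 36.87 and 38.85 TPM in the same order, and Srebf1 had 30.48 and 40.45 TPM (35.47 ± 7.05). The range of Srebf1 covers both Insig1 values, so these 2 could not be ordered on TPM of all transcripts. Over coding transcripts alone Srebf1 had 14.65 and 19.05 TPM, below Insig1 in both livers. Srebf2 had 17.73 and 21.19 TPM, and Scap, the escort protein, had 9.60 and 11.54 TPM. Insig2, the other anchor, had 4.99 and 4.14 TPM from 407 and 251 reads. Its 2 values lay below those of the other 4 genes in both livers.

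Fatty acid genes had means between 0.265 and 71.97 TPM, the widest range of the 4 roles as a fold but not in TPM. Scd2, a stearoyl-CoA desaturase, had 65.58 and 78.36 TPM in replicates 1 and 2, and Acly, which makes cytosolic acetyl-CoA from citrate, had 55.73 and 63.02 TPM. The desaturases of polyunsaturated fatty acids came next, Fads1 at 35.40 and 39.52 TPM and Fads2 at 28.04 and 30.38 TPM. Fasn, the synthase that builds palmitate, was lower than all of these at 14.53 and 18.77 TPM, and its range overlaps that of the elongase Elovl5 at 15.17 and 12.89 TPM. Scd1, the main desaturase of the adult liver, had 8.20 and 9.11 TPM. Acaca, the cytosolic acetyl-CoA carboxylase and the committed step of synthesis, had 5.26 and 5.70 TPM from 1192 and 964 reads, and Elovl6, which extends palmitate, had 3.63 and 3.70 TPM. Acacb, the mitochondrial carboxylase that limits fatty acid oxidation, had 0.36 and 0.17 TPM from 82 and 24 reads, with counting errors of 11% and 20.4%. The median of the 10 genes was 15.34 TPM, and they held 0.0274% ± 0.0022 of mouse TPM. By reads, which grow with transcript length, they held 0.112% and 0.122%, against 0.105% and 0.104% for the late sterol genes.

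**Figure D1:**
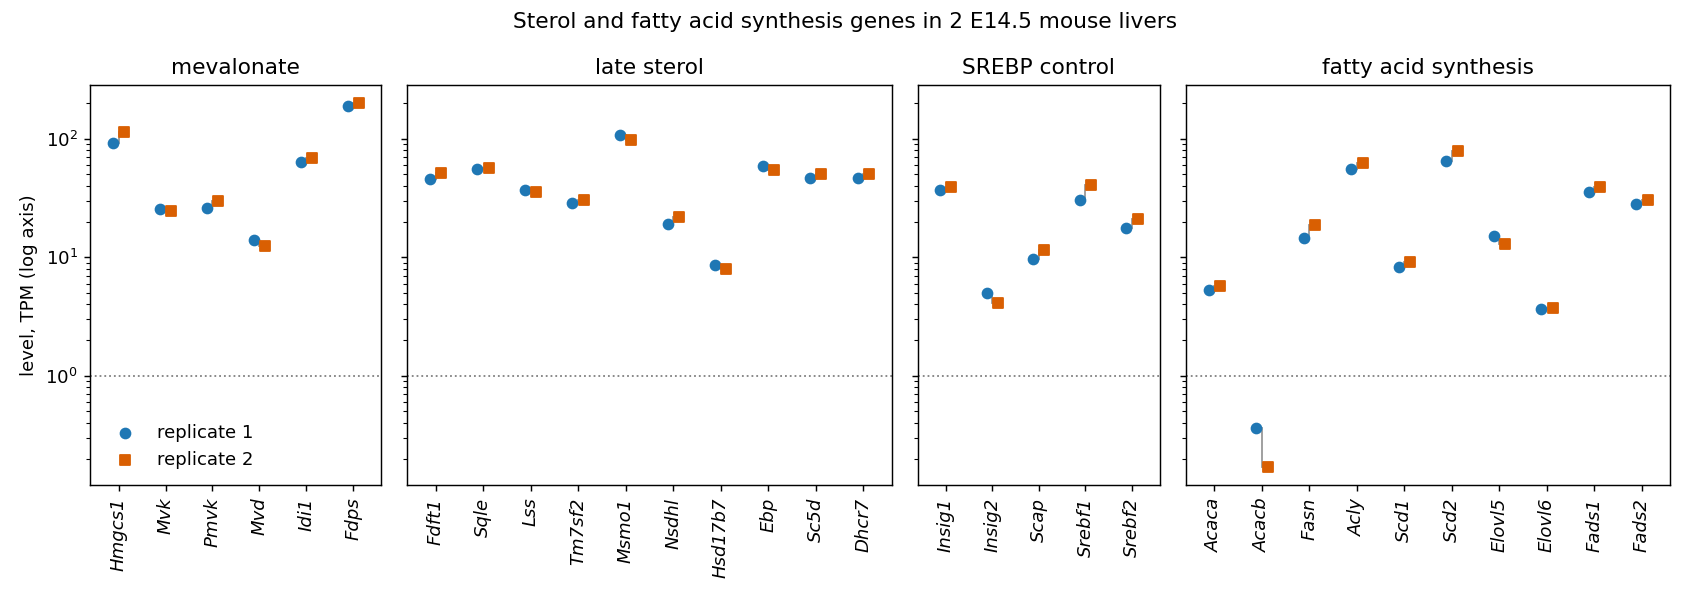
Level of each member in TPM (log axis) in replicate 1 (circles) and replicate 2 (squares), in 4 panels by role, with grey lines joining the livers and a dotted line at 1 TPM. Acacb lies below the line in both livers, and Fdps, Hmgcs1 and Msmo1 have the highest means over all transcripts.

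Within pairs of related genes, 1 member dominated in several cases, and the order was the same in both livers for all 7 pairs. Each ratio is log2 of TPM + 1. Scd2 over Scd1 was 2.86 in replicate 1 and 2.97 in replicate 2 (2.91 ± 0.08), or 8-fold and 8.6-fold in TPM. These desaturase genes lie 87591 nucleotides apart on chromosome 19 and carry out the same reaction. Insig1 over Insig2 was 2.66 and 2.95 (2.81 ± 0.21). Acaca over Acacb was 2.20 and 2.52 (2.36 ± 0.22), a value that the pseudocount compresses, since the TPM folds were 14.6 and 33.5. Elovl5 over Elovl6 was 1.80 and 1.56 (1.68 ± 0.17). Fads1 over Fads2, neighbours 81142 nucleotides apart on chromosome 19, was small at 0.33 and 0.37 (0.35 ± 0.03). Srebf2 over Scap was 0.82 in both livers. The scale can change these sizes: by reads, Fads1 over Fads2 was 1.61, Elovl5 over Elovl6 was 0.77 and Acaca over Acacb was 4.56.

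The order of the 2 SREBP genes depended on how transcripts were counted. On the deposited gene TPM, Srebf2 over Srebf1 was -0.75 in replicate 1 and -0.90 in replicate 2 (-0.83 ± 0.11), with Srebf1 higher. Over protein-coding transcripts alone it was 0.26 and 0.15, with Srebf1 at 14.65 and 19.05 TPM and Srebf2 at 17.73 and 21.19 TPM. By reads it was 0.45 and 0.33. Both of these alternatives put Srebf2 above Srebf1 in both livers, and the restriction to coding transcripts was chosen after the values were seen.

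**Figure D2:**
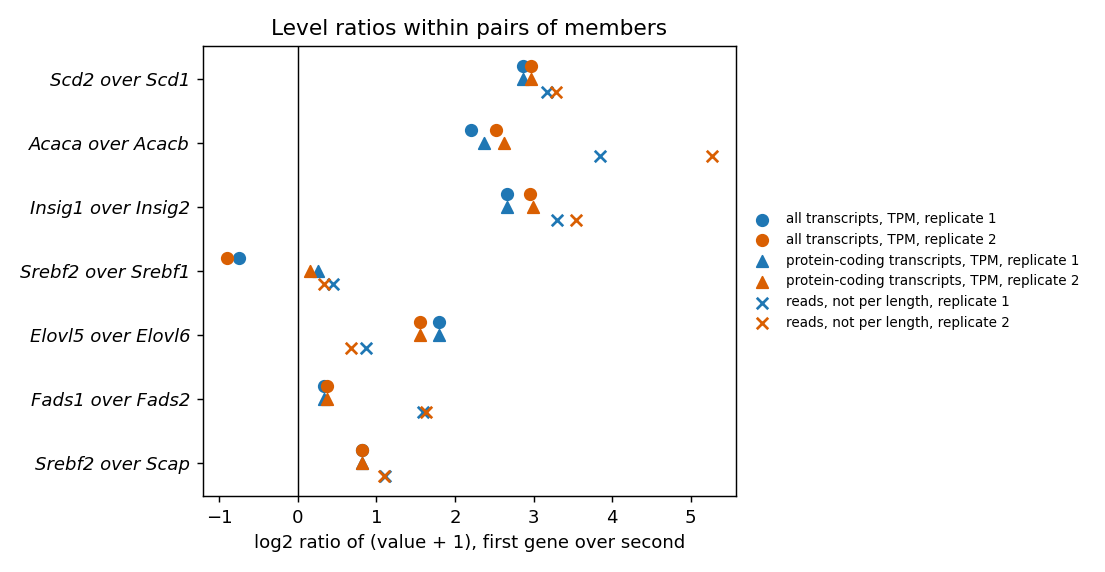
Log2 ratio of (value + 1) within 7 pairs of members, from TPM of all transcripts (circles), TPM of protein-coding transcripts (triangles) and reads (crosses), in replicate 1 (blue) and replicate 2 (orange). Srebf2 over Srebf1 lies below 0 only for TPM of all transcripts, at -0.75 and -0.90.

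The transcript tables divide each gene's TPM and reads over its transcripts. Srebf1 (ENSMUSG00000020538.11, chr11:60199089-60222581, mm10, minus strand) is known for alternative starts that give SREBP-1a and SREBP-1c, and transcripts are named here without being assigned to either. Srebf1-204, a noncoding transcript of 367 nucleotides at the upstream start printed above, took 47.1% of the gene's TPM in replicate 1 and 50.06% in replicate 2. It rested on 161 and 158 reads, 6.07% and 6.59% of the gene's reads, because a short transcript needs few reads for a high TPM. Srebf1-201, the coding transcript of 4299 nucleotides that begins near the middle start, took 36.76% and 35.73% of TPM but 74.3% and 73.7% of reads. Srebf1-207, the coding transcript that begins near the downstream start, took 7.5% and 7.51% of TPM, at 2.29 and 3.04 TPM. So the coding transcript near the middle start stood well above that near the downstream start in both livers, at 11.21 and 14.45 TPM. Srebf1-203, another coding transcript, begins further downstream (11:60207188) and had 1.15 and 1.56 TPM. These values divide reads over annotated transcripts, and the use of a start was not measured. The upstream and downstream windows held 1 CCAAT match each, and the middle window held none.

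The leading transcripts were mostly the same by either measure. Of the 31 genes, 12 had 1 annotated transcript. In 19 of the 19 others the same transcript led in both livers, by TPM and by reads, and in 18 of the 19 the 2 measures named the same one, Srebf1 being the exception. The leader's share differed between the livers by a median of 2.64 percentage points and by at most 11.3, in Fasn. It held 50% or more of TPM in both livers in 15 genes. Lesser transcripts moved further: Insig2-208 took 14.63% of TPM in replicate 1 and 30.66% in replicate 2, on 34 and 41 reads. Insig2-214 took 21.2% and 0%, on 25 and 0 reads, and Hsd17b7-203 took 16.79% and 0%, on 30 and 0 reads. These 3 were named after their values were seen.

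Short or noncoding transcripts raised the TPM of other members as well. In Lss, Lss-201, the coding transcript of 4667 nucleotides, took 50.27% and 58.71% of TPM but 84.1% and 86.8% of reads, and Lss over coding transcripts alone stood at 18.51 and 21.56 TPM. Hsd17b7-201 took 57.5% and 67.31% of TPM, against 90.3% and 92.3% of reads. Ebp was divided between the coding transcripts Ebp-201 (37.94% and 42.14%) and Ebp-203 (34.34% and 30.39%) and the retained-intron transcript Ebp-202 (27.71% and 27.47%). Msmo1-206, a noncoding transcript, took 37.39% and 36.61% of TPM and also 27.5% and 26.8% of reads, 2074 and 1290 of them. Over coding transcripts alone Msmo1 averaged 64.11 TPM, below Scd2 at 71.97 TPM and Idi1 at 66.22 TPM. Acly was shared by 3 coding transcripts, of which Acly-207, with a start of its own, took 48.22% and 50.7%. Mvk-201 held 69.5% and 77.37% of Mvk, and Insig2-201 held 64.18% and 66.82% of Insig2.

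Acaca is known for alternative promoters. Acaca-201, of 9026 nucleotides, begins at the start whose window is printed above, and that window had no match of either motif. This start lies inside the gene, and the bases just before it read like the end of an intron. The window may therefore not be a promoter, and its lack of matches is not a result on Acaca promoters. Acaca-201 took 55.06% of the gene's TPM in replicate 1 and 63.27% in replicate 2, or 90.8% and 97.1% of the gene's reads. Acaca-206 and Acaca-203, short coding transcripts that share another start (11:84179831), took 32.94% and 30.02% and then 7.93% and 5.57% of TPM. They rested on 24 and 17 reads and on 17 and 9 reads, so the share given to this start differs between the measures. Both measures divide reads over annotated transcripts, and the use of a start was not measured. Acaca-202, a coding transcript of 9513 nucleotides with another start (11:84173122), had 61 reads in replicate 1 and 0 in replicate 2. These were 5.16% and 0% of the gene's reads. Acaca-204, which begins at the 5′ end of the gene (11:84129672), had 0 reads in replicate 1 and 1 in replicate 2. That end lies 72 nucleotides from the start of Tada2a, a gene on the other strand with 7.38 and 6.51 TPM. In Acacb, the leading transcript was Acacb-204, which retains an intron, at 43.03% and 47.34% of TPM on 43 and 16 reads.

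**Figure D3:**
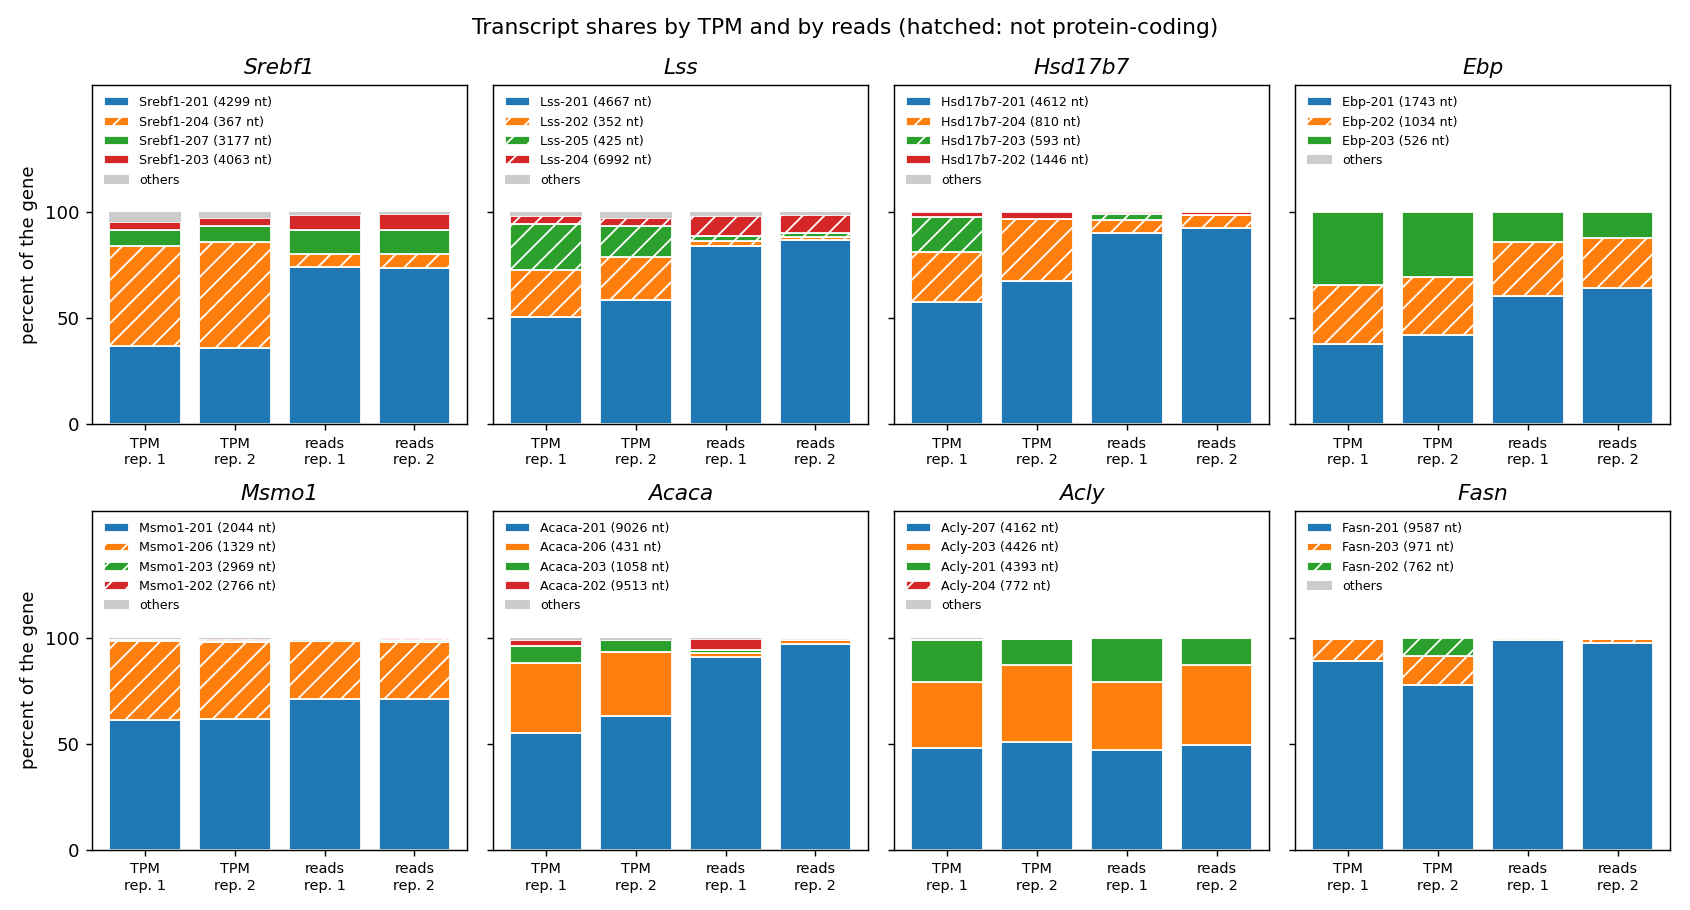
Share of each gene held by its transcripts, in percent of TPM and percent of reads, in replicates 1 and 2, for 8 members; colours mark up to 4 transcripts with their length, grey the rest, and hatching those not protein-coding. In Srebf1, the noncoding Srebf1-204 takes 47.1% and 50.06% of TPM but 6.07% and 6.59% of reads.

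Between the livers the members differed little and as most genes did. The median log2 ratio of TPM + 1, replicate 1 over replicate 2, was -0.10 over the 31 members and -0.10 over 11741 genes whose mean reached 1 TPM, of which 72.3% were lower in replicate 1. Of the members, 22 were lower and 9 higher in replicate 1. With CPM scaled by TMM factors, the median of all genes moved to 0.01 and that of the members to 0.00, so directions on the TPM scale include this shift and are read against it. By role, medians on the TPM scale were -0.09 for mevalonate, -0.04 for late sterol, -0.24 for SREBP control and -0.12 for fatty acid genes. With TMM factors they were 0.03, 0.02, -0.14 and -0.04.

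Of the 30 members whose mean reached 1 TPM, 3 were at least 25% apart between the livers, beside 13.2% of all such genes, and none was 2-fold apart, beside 0.758%, so the members' share was near that of all genes. All 3 were lower in replicate 1, a direction in which 9.69% of all genes were at least 25% apart. Srebf1, with 30.48 and 40.45 TPM in replicates 1 and 2, had a log2 ratio of -0.40. Fasn, with 14.53 and 18.77 TPM, had -0.35, and Hmgcs1, with 91.67 and 114.84 TPM, had -0.32, just at the threshold. None of the 3 reached it with TMM factors, where the ratios were -0.26, -0.07 and -0.21. The Fasn ratio was -0.16 over coding transcripts: Fasn-201 had 12.94 and 14.58 TPM, while the retained-intron transcript Fasn-202 had 0.10 and 1.59 TPM, on 3 and 31 reads. Scd2 at -0.25, Srebf2 at -0.24 and Scap at -0.24 came next, and Mvd (0.14), Msmo1 (0.13), Insig2 (0.22) and Elovl5 (0.22) lay on the other side. The neutrophil markers, higher in replicate 1 by a median of 0.37, and the megakaryocyte markers, at -0.31, moved further than the members' median, and their part in these ratios was not tested.

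**Figure D4:**
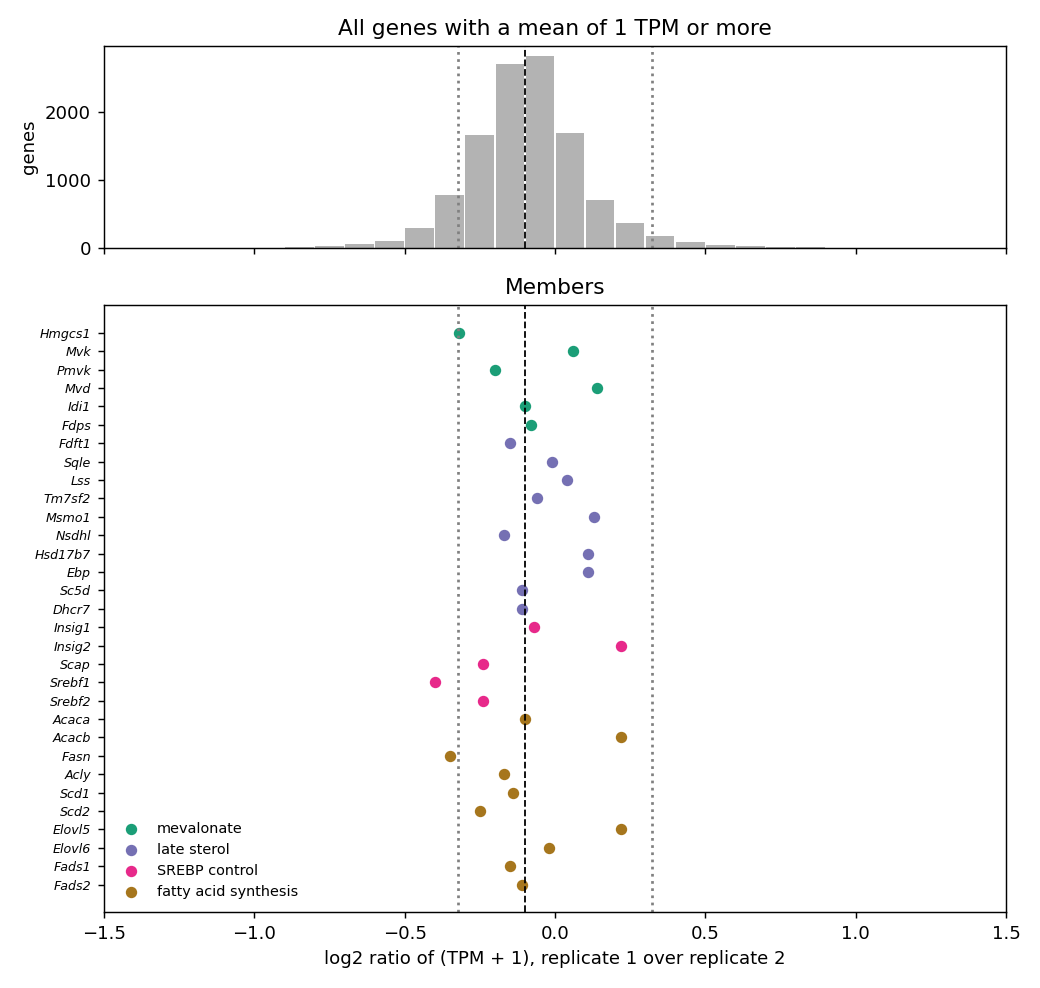
Log2 ratio of (TPM + 1), replicate 1 over replicate 2, as a histogram of genes whose mean reached 1 TPM (top) and for each member coloured by role (bottom); the dashed line is the median of all genes, -0.10, and dotted lines mark 25% either way. Srebf1, Fasn and Hmgcs1 lie at or past the left dotted line.

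Other genes of these pathways were taken as 6 lists of 59 symbols, of which 58 were measured and 51 were detected in both livers. The 11 genes of SREBP processing and lipid sensing were all detected, with a median of 15.06 TPM. Mbtps2, the protease that makes the last cleavage of SREBP, was lowest at 3.21 and 3.48 TPM in replicates 1 and 2. Of the 11 genes of precursor and cofactor supply, 10 were detected. Cyb5a, the cytochrome that passes electrons to desaturases, had 553.30 and 539.33 TPM, above every member. Thrsp, a lipogenic factor of the adult liver, had 0 reads in replicate 1, which allows up to 0.061 TPM, and 1 read in replicate 2 (0.03 TPM).

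All 9 isoprenoid branch genes were detected, at a median of 11.99 TPM, led by Fnta, a prenyltransferase subunit, at 28.30 and 33.77 TPM, with Pggt1b lowest at 3.17 and 3.94 TPM. All 9 cholesterol storage and transport genes were detected too, with a median of 10.27 TPM. Lipa, the lysosomal lipase, led them at 32.74 and 35.89 TPM, and Osbp, an oxysterol-binding protein, was lowest at 3.10 and 4.05 TPM. These 2 lists held no gene at 0.

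Of 15 other elongation and desaturation genes, 10 were detected. Tecr, the reductase that ends each elongation cycle, had 210.15 and 234.59 TPM, above Fdps in both livers. The other 5 were below 1 TPM, among them paralogs known for a narrow tissue range. Elovl3 and Scd3 had 0 reads in both livers, which allows up to 0.051 and 0.074 TPM of Elovl3 and up to 0.021 and 0.031 TPM of Scd3. Scd4 had 0 and 7 reads, Elovl4 had 0.12 and 0.04 TPM, and Elovl7 had 0.84 and 0.86 TPM. So of the 4 stearoyl-CoA desaturase genes, Scd2 was highest, Scd1 came next and the other two were below 1 TPM.

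A paralog of a late sterol member stood above its counterpart. Lbr, an anchor of the nuclear lamina that also has sterol C14 reductase activity, had 211.41 and 232.80 TPM in replicates 1 and 2, against 28.97 and 30.27 TPM for Tm7sf2, the member with that activity. The 2 genes did not overlap in either liver. Idi2 had 0 reads in both livers, which allows up to 0.033 and 0.048 TPM, while Idi1 had 63.96 and 68.75 TPM.

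**Figure D5:**
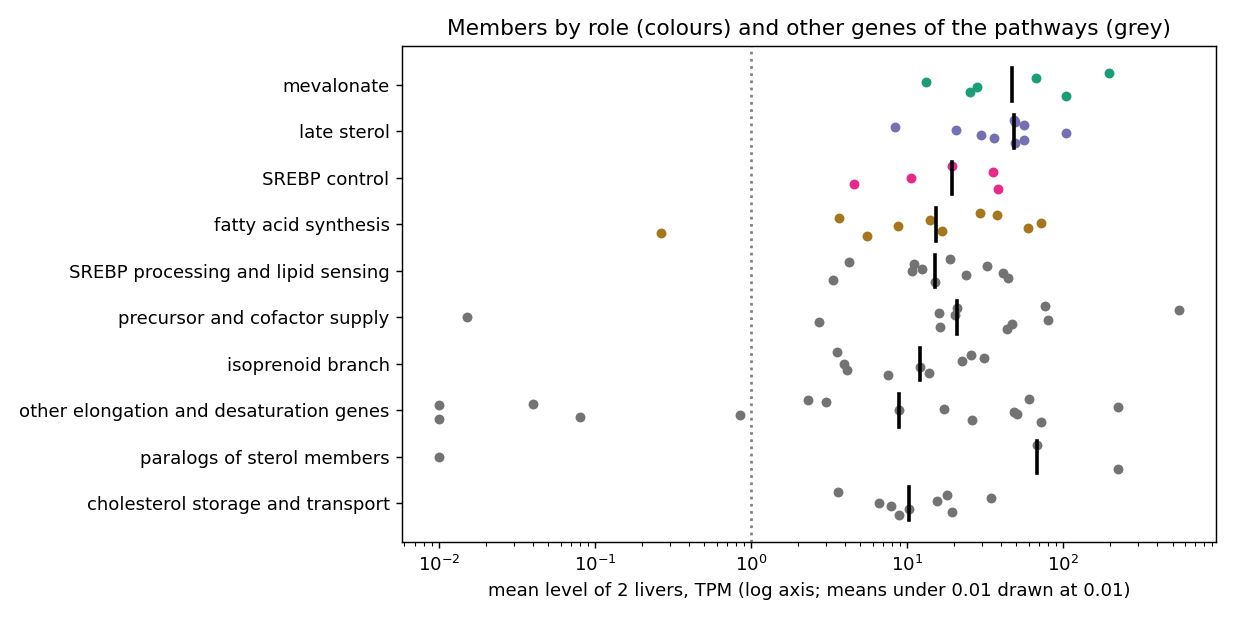
Mean TPM of the 2 livers (log axis) for each member, by role (colours), and for each measured gene of 6 other lists of the pathways (grey); black bars are medians and the dotted line is 1 TPM. Means under 0.01 are drawn at 0.01, and Elovl3, Scd3 and Idi2 lie there.

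The 31 genes lay on 13 chromosomes, with 5 on chromosome 19 and 4 on chromosome 11. Several share their 5′ region with a gene on the other strand. The starts of Mvk and Mmab, which processes cobalamin, lie 209 nucleotides apart, so the Mvk window printed above covers both, and Mmab had 7.44 and 8.07 TPM beside 25.80 and 24.79 TPM for Mvk. Nsdhl and Cetn2 start 146 nucleotides apart, and Cetn2 had 28.13 and 30.16 TPM. Dhcr7 and Nadsyn1 start 296 nucleotides apart, and Nadsyn1 had 5.82 and 4.93 TPM. Fdft1 overlaps Ctsb by 774 nucleotides on the other strand, and Ctsb was higher at 246.89 and 274.07 TPM. Tm7sf2 overlaps Vps51 by 532 nucleotides on the same strand. The sources do not say if counting used strand, so values of overlapping pairs are uncertain there. The posterior SD of the read estimate was at most 0.611% of a member's reads, in Tm7sf2, and 0 in 20 of the 31.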

How the data were processed

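Total RNA of E14.5 mouse liver was sequenced in 2 libraries of 1 group, numbered as in the labels. The authors deposited tables of genes and of transcripts, built on mm10 and GENCODE M4, per the deposited file descriptions. The aligner is not given in the sources used. Expected counts (estimated reads, not normalized), TPM over all rows with spike-ins, and the percent of a gene's TPM per transcript were deposited, per the file headers, with a posterior SD of each count.

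Symbols, positions and transcript names came from GENCODE M21, of the same build, by unversioned identifier, and promoters from RefSeq GRCm38.p6. Members and lists were chosen with earlier results of these data known. All members are named, as are the highest and lowest gene of each other list and those below 1 TPM in both livers, except 1 gene not reported here. Detection was 1 TPM. Ratios are log2 of TPM + 1, which understates differences of low genes. A count of 0 was taken to allow 3 reads. Floors and counting errors cover counting error only, since amplified reads are not independent.

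The SD covers the spread between these 2 livers, technical error included. Alternatives were pseudocounts of 0.1 and 5, CPM with TMM factors (edgeR 4.0.16 on rounded expected counts, factors only), TPM without globin genes, expected counts, other minima, each library alone and, added after the data were seen, protein-coding transcripts only. The calls of genes apart and the median ratio were tested on simulated counts with known 2-fold changes. The other calculations were not tested in this way. Python 3.11.15, numpy 2.4.6, pandas 2.3.3, matplotlib 3.10.9 and R 4.3.3 were used.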

Additional observations from a re-analysis of the deposited data

How the results depend on the processing

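No paired analysis was possible because there is 1 group of 2 libraries. Of the summary results, 70 comparisons with an alternative stayed the same, 44 moved and 6 reversed. Of the values of single genes and lists, 248 stayed the same, 41 moved, 8 lost the 25% threshold and 3 gained it, all 3 for Acacb, whose ratio is 0.22 at few reads. For levels, medians, shares and pair ratios, the same meant within the SD of the 2 libraries. Each library alone falls within that SD by construction, or nearly so for medians. Those entries in both tallies therefore do not measure stability. The setting without globin genes also rescaled TPM to mouse rows only, which leaves out spike-ins. Every TPM is then higher by construction. Medians were 85.90 (mevalonate), 88.18 (late sterol), 35.42 (SREBP control), 27.95 (fatty acid) and 53.98 TPM (all members). Shares were 0.0785%, 0.083%, 0.0196%, 0.0449% and 0.226% of mouse TPM. As shares of expected counts, which are not per length, they were 0.0911%, 0.104%, 0.0352%, 0.117% and 0.348%. Over protein-coding transcripts only, chosen after the data were seen, medians were 44.19 (late sterol), 16.85 (SREBP control), 13.87 (fatty acid) and 27.95 TPM (all). With a pseudocount of 0.1, log2 pair ratios were 3.04 (Scd2 over Scd1), 3.98 (Acaca over Acacb), 3.03 (Insig1 over Insig2), 1.90 (Elovl5 over Elovl6) and 0.87 (Srebf2 over Scap). With a pseudocount of 5 they were 2.49, 0.99, 2.16, 1.13 and 0.65, and Fads1 over Fads2 was 0.31. By expected counts they were 3.23, 4.56, 3.42, 0.77 and 1.11, with Fads1 over Fads2 at 1.61 and Srebf2 over Srebf1 reversed at 0.39. Srebf2 over Srebf1 was also reversed over coding transcripts, at 0.20. The median ratio between livers with TMM factors was reversed for mevalonate (0.03), late sterol (0.02) and all members (0.00), and was -0.14 for SREBP control and -0.04 for fatty acid genes. Without globin it was -0.04 for mevalonate and reversed to 0.01 for late sterol. It was -0.11 for late sterol over coding transcripts and -0.18 for SREBP control with a pseudocount of 5. Members at least 25% apart numbered 3 as reported, 1 with a pseudocount of 5 (3.48% of genes), 0 with TMM factors (9.55% of genes; no p-value was computed), 1 without globin (13.7% of genes) and 2 over coding transcripts (11.4% of genes). Apart from these constructions the cause was not tested. With 2 libraries and 1 group the SD is poorly known, and depth limits Acacb most. Protein sequences were not used here, so the planned identities between paralogs were not run.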
